A study of Mus musculus with 12 samples.

Results

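The 35 genes described here were chosen by name as members of glycolysis and of the response to low oxygen. The choice was made with earlier results of these data known, so counts of members are descriptions. They comprise 16 glycolytic enzymes, 3 transporters of glucose and lactate, 3 regulators of glycolytic flux, 4 genes of oxygen sensing and 9 other hypoxia-inducible genes. They are 35 of the 24062 genes in the count table, and 34 of them had enough reads to be tested. The exception was Eno1, which had 1 read in all libraries together.

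RNA was measured in colon tumours of Balb/c mice that carried transplanted bone marrow. ST2, encoded by Il1rl1, is the receptor for the cytokine IL-33, and groups are written as marrow => host. The groups were St2-/- => St2-/-, WT => St2-/-, St2-/- => WT and WT => WT, with 3 tumour libraries each, 12 in all. Hosts were lethally irradiated with 2 doses of 5 Gy and given 8 weeks for the donor marrow to reconstitute their blood cells. All groups then received azoxymethane (AOM), a carcinogen that causes colon tumours in rodents, at 10 mg/kg once a week for 6 weeks. Tumours were collected when 13 or 14 weeks had passed since the final dose. The mice were males except for WT => St2-/- replicate 3, a female. A host keeps its own epithelium, stroma and radio-resistant immune cells, so the host genotype and the marrow genotype refer to different cells of one tumour. The labels number the samples of St2-/- hosts in one series and those of WT hosts in another, and any difference between these series cannot be told apart from the host genotype.

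Glycolysis splits glucose into pyruvate in the cytosol, and lactate dehydrogenase turns pyruvate into lactate when it is not passed to mitochondria. When oxygen is low, prolyl hydroxylases stop marking the HIF alpha subunits for destruction, and the HIF complex binds short RCGTG motifs near its targets. Those targets include most glycolytic enzymes, the glucose transporter Slc2a1 and genes for vessel growth, pH control and mitophagy. Tumours, including those of the colon, often run glycolysis at a high rate even where oxygen is present.

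The promoters of the members were searched for the HIF core motif, written as ACGTG or GCGTG and read on both strands, so that its complements CACGT and CACGC also count and the palindrome CACGTG counts on each strand. In RefSeq promoters of GRCm38.p6, each 250 bases before to 50 bases after a start, 32 members matched by symbol or synonym and 29 of these had at least 1 motif. A gene counted if any of its promoters held the motif, and the share among all genes of the table was 46.7%. By promoter, 37 of 46 promoters of members held the motif, against 43.8% of all 32851 promoters. For Vegfa the motif lay in the promoter at chr17:46025114-46025413 and not in that at chr17:46032328-46032627. Motifs were found for 13 of 16 glycolytic enzymes, all but Gpi1, Tpi1 and Eno2, and for 8 of 8 other hypoxia-inducible genes. The promoters shown are of Pfkp and Hk2, the enzymes with the largest host differences, of Ldha, a classic HIF target, and of Ero1l and Car9, which are hypoxia-inducible but no part of glycolysis. Capitals mark the motif, and sequences are given 5′ to 3′ on the strand of the gene.
Pfkp, chr13:6648722-6649021, minus strand, 4 motifs: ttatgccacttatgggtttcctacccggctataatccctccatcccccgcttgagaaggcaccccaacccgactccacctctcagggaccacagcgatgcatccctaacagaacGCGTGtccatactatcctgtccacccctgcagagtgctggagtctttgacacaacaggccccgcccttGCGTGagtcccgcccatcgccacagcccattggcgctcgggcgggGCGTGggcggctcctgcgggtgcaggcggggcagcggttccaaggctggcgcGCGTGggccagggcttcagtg
Hk2, chr6:82774405-82774704, minus strand, 2 motifs: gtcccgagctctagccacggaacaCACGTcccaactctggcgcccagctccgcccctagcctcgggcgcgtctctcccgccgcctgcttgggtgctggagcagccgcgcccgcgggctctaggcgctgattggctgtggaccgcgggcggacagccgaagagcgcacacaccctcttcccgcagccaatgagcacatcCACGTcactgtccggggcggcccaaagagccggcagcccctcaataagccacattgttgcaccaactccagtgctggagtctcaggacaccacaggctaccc
Ldha, chr7:46845554-46845853, plus strand, 7 motifs: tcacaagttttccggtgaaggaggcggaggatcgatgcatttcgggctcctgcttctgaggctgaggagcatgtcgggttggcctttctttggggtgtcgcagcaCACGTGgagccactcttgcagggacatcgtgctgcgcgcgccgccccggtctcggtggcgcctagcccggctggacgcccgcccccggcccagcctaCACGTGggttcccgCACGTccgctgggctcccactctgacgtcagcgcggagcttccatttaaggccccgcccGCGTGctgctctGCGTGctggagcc
Ero1l, chr14:45318523-45318822, minus strand, 3 motifs: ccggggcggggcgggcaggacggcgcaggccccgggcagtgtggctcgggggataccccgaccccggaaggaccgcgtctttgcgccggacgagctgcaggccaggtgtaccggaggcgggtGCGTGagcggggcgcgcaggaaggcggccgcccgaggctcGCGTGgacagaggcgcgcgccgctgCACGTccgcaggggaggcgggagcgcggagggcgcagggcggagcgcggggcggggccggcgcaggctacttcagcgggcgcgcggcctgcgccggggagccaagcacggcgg
Car9, chr4:43506776-43507075, plus strand, 1 motif: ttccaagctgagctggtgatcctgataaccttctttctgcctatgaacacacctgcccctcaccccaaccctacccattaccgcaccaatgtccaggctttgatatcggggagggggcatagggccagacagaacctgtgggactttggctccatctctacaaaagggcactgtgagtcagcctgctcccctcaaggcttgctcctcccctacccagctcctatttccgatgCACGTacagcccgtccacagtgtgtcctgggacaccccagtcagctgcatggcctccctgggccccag
Among the promoters shown, the motif was present in those of Pfkp and Hk2 and in that of Car9, whose host log2 fold change was -0.29. It was absent from the promoters of Gpi1 and Tpi1, whose host log2 fold changes were -0.30 and -0.39. A match is a description of these letters and was not tested as a binding site. Whether motifs and fold changes are related over the members was not tested.

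Libraries held 10293818 to 12962496 reads counted for genes. Il1rl1 itself had 7.30 to 25.0 CPM, the read count scaled to library depth, in St2-/- hosts, against 36.5 to 275 CPM in WT hosts. In St2-/- => St2-/-, where both compartments lack ST2, Il1rl1 still had 13.4, 7.91 and 10.75 CPM. Reads aligned to more than 1 place accounted for 40.3% to 48.9% of the table's totals in St2-/- hosts and 36.7% to 42.9% in WT hosts. All 8 colon epithelium markers examined were expressed in every library, and their summed level was 4137 to 9630 CPM in St2-/- hosts and 7640 to 11610 CPM in WT hosts. Summed smooth muscle markers ranged widely, up to 3368 CPM in WT => St2-/- replicate 2 and 2798 CPM in St2-/- => WT replicate 1, and 1578 CPM in WT => St2-/- replicate 3. In bulk tumour RNA, fewer cells of a type and less RNA per cell cannot be told apart. Whether these differences between libraries played a part in the results that follow was not tested.

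Many glycolytic genes have processed pseudogenes or near-identical copies, and reads that align to several places were not assigned to any gene. The share of 50-base windows of a member's longest coding transcript that also occur in another annotated gene is a rough guide to such reads. This share does not measure lost reads, because it also counts genes that overlap the member, where a read need not align to several places. It was 82.5% for Gapdh, glyceraldehyde-3-phosphate dehydrogenase, whose windows recur in 222 other genes. It was 72.2% for Eno1, enolase 1, of which Eno1b alone shares 70.5%. Pgk1, phosphoglycerate kinase, shared 68.0%, the mitophagy receptor Bnip3 62.4%, phosphoglycerate mutase Pgam1 41.5% and pyruvate kinase Pkm 34.4%. Glucose-6-phosphate isomerase Gpi1 shared 25.3%, with 18.6% in a processed pseudogene. In Pfkp, 17.1% of windows lie in Pitrm1, an overlapping neighbouring gene. Of the Bnip3 windows, 44.9% occur in a long non-coding RNA, 21% in an antisense gene and 17.9% in a processed pseudogene. Hk2, Slc2a3, Aldoc, Adm and Ero1l had none, and 18 of the 35 members were below 1%.

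**Figure D1:**
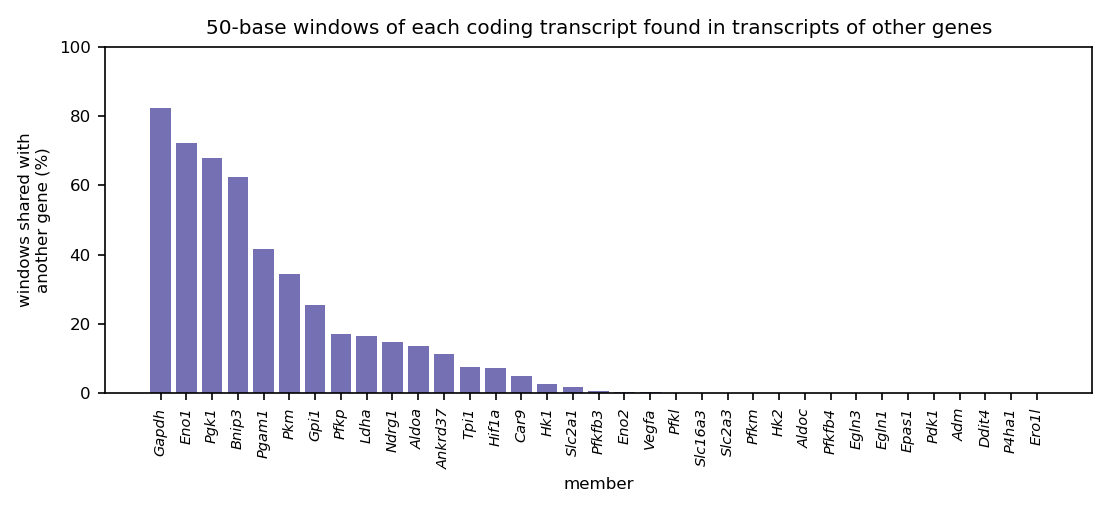
Bars give, for each of the 35 members on the horizontal axis, the percentage of 50-base windows of its longest coding transcript that also occur in an annotated transcript of another gene. Gapdh, Eno1, Pgk1 and Bnip3 stand above 60%, while 18 members lie below 1%.

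Per kilobase of transcript, the highest mean levels over all libraries were those of Aldoa, aldolase A, at 849 CPM per kb, Pkm at 559 CPM per kb and Ldha, lactate dehydrogenase A, at 554 CPM per kb. Triosephosphate isomerase Tpi1 followed at 326 CPM per kb. Gapdh stood at 7.54 CPM per kb and Pgk1 at 35.6 CPM per kb, although both act in the same linear pathway. The lowest were Slc2a3, the glucose transporter GLUT3, at 1.47 CPM per kb and Eno1. The copy Eno1b held 13289 reads in the table against the 1 read of Eno1, and the cause of this was not tested. Levels of Gapdh, Eno1, Pgk1, Bnip3 and Pgam1 are therefore uncertain.

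The effect of the host genotype was tested as the mean of its differences under either marrow, 6 St2-/- host libraries against 6 WT host libraries. No member was called at an adjusted p under 0.05 by edgeR's quasi-likelihood test, 0 of 34, where 206 of 15060 genes were called (1.37%). By the same test, 15 of 34 members were lower in St2-/- hosts at an unadjusted p under 0.05, against 10.8% of all genes tested. None was higher at that threshold, against 9.81% of all genes. DESeq2's Wald test called 9 members at an adjusted p under 0.05, all lower in St2-/- hosts, namely Hk1, Hk2, Gpi1, Pfkp, Aldoa, Tpi1, Pgam1, Adm and Ero1l. It called 4.33% of genes lower and 3.25% higher. Left out, WT => St2-/- replicate 1 brought the edgeR count to 5 members, Slc2a1, Hk2, Pfkp, Tpi1 and Ero1l. Leaving out St2-/- => WT replicate 3 or WT => WT replicate 2 brought it to 1 member each, Pfkp and Hk1. Calls over all genes also moved when single libraries were left out, over a range given under the dependence on processing. These member counts are therefore not particular to the list.

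**Figure D2:**
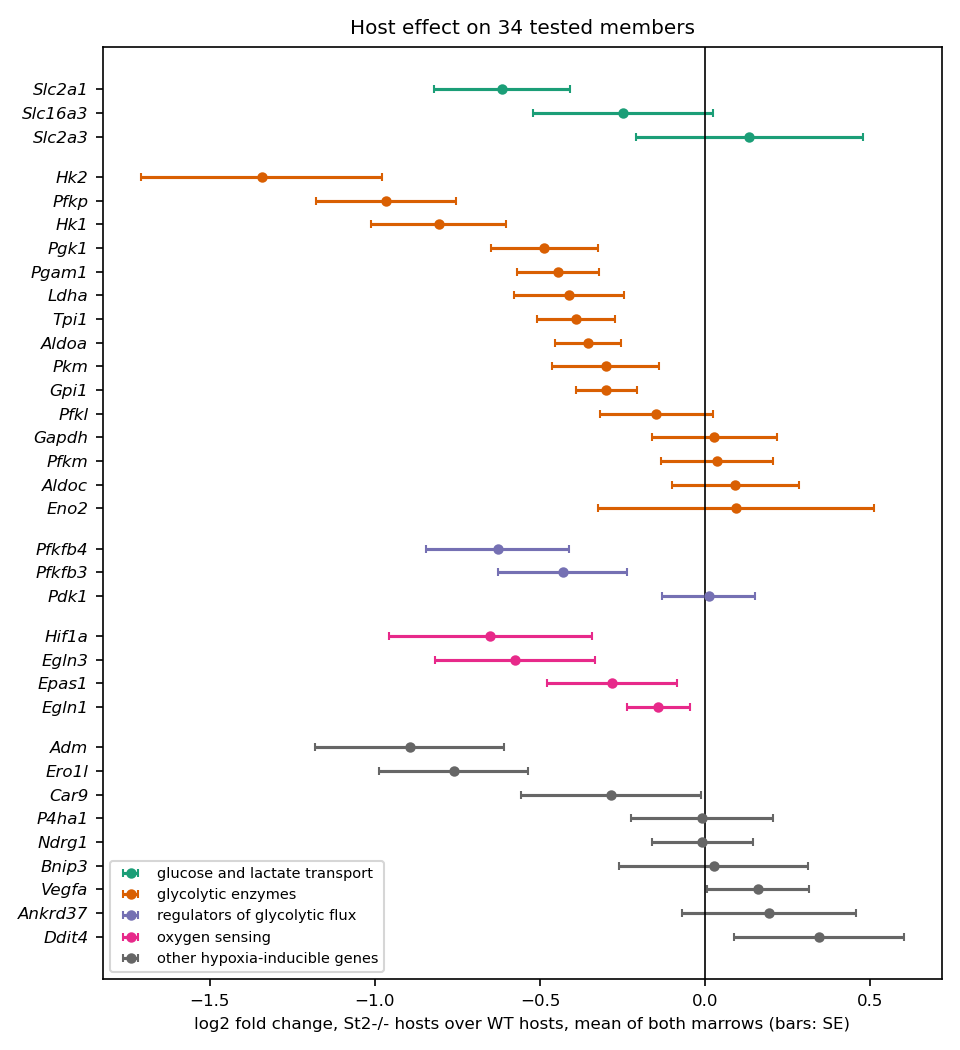
Points are log2 fold changes of the 34 tested members, St2-/- hosts over WT hosts averaged over both marrows, with bars of 1 SE and members grouped by role. Most enzymes lie left of 0, with Hk2 at -1.34, while the other hypoxia-inducible genes spread from Adm at -0.90 to Ddit4 at 0.34.

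Among the 15 tested enzymes, the median log2 fold change was -0.35, 11 were below 0 (24 of all 34 members, against 50.2% of all genes tested) and 9 had an unadjusted edgeR p under 0.05, all lower in St2-/- hosts. The median over all genes tested was -0.0015. The 9 were Hk1, Hk2, Gpi1, Pfkp, Aldoa, Tpi1, Pgk1, Pgam1 and Ldha, which cover most steps of the pathway. The 9 other hypoxia-inducible genes had a median of -0.0088, with 5 below 0 and 4 above, and 2 had an unadjusted edgeR p under 0.05, Adm and Ero1l. The difference between these lists is given as a description and was not tested. The median of the other hypoxia-inducible genes was -0.124 without WT => St2-/- replicate 2, when 30 of 34 members were below 0, and 0.124 without WT => St2-/- replicate 3. Over all omissions of single libraries the enzyme median lay between -0.405 and -0.298. Without WT => St2-/- replicates 2 and 3 together, the enzyme median was -0.264 and the median over all genes -0.0278. With libraries scaled by total counts alone, the median over all genes moved to 0.139. Under that scaling the enzyme median was -0.213 and that of the other hypoxia-inducible genes 0.142, or -0.352 and 0.00306 relative to all genes.

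Pfkp (chr13:6579768-6648777, minus strand) encodes the platelet form of phosphofructokinase, which commits glucose to glycolysis. It had 137, 106 and 94.9 CPM in St2-/- => St2-/- and 171, 94.96 and 122 CPM in WT => St2-/-, against 235, 316 and 168 CPM in St2-/- => WT and 307, 167 and 222 CPM in WT => WT. The hosts overlapped through WT => St2-/- replicate 1, which lay just above the lowest library of each WT host group. The log2 fold change was -0.97 ± 0.21 (SE), the smallest p among the members, with an edgeR adjusted p of 0.0575. For the overlapping gene Pitrm1 the log2 value was 0.12 ± 0.14 (SE) in the same comparison.

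Hk2 (chr6:82725025-82774454, minus strand) encodes hexokinase 2, which traps glucose in the cell and is typical of tumours and insulin-sensitive tissue. It had 201, 182 and 201 CPM in St2-/- => St2-/- and 486, 79.0 and 214 CPM in WT => St2-/-, against 524, 607 and 427 CPM in St2-/- => WT and 888, 384 and 604 CPM in WT => WT. All St2-/- host libraries except WT => St2-/- replicate 1 lay below every WT host library. The log2 fold change was -1.34 ± 0.36 (SE), the largest in size among the members, with an edgeR adjusted p of 0.101. The level differed 11.2-fold between WT => St2-/- replicate 2 and WT => WT replicate 1, the widest range of any tested member. WT => St2-/- replicate 2 also had the lowest summed epithelial markers, 4137 CPM. The part of epithelial content in the Hk2 range was not tested.

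Hk1 (chr10:62268855-62379908, minus strand) encodes hexokinase 1, the form present in most tissues. It had 148, 142 and 132 CPM in St2-/- => St2-/- and 194, 115 and 165 CPM in WT => St2-/-, against 291, 345 and 212 CPM in St2-/- => WT and 336, 150.2 and 237 CPM in WT => WT. The hosts overlapped, because WT => WT replicate 2 lay among the St2-/- hosts. Its fold change on the log2 scale was -0.81 ± 0.20 (SE) with an edgeR adjusted p of 0.0874. Hk2 made up 34.8% to 66.0% of the summed Hk1 and Hk2 level per kilobase in St2-/- hosts, median 50.7%, and 57.8% to 67.2% in WT hosts, median 63.7%.

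Aldoa encodes aldolase A, which cleaves fructose-1,6-bisphosphate. It had 1119, 1151 and 1043 CPM in St2-/- => St2-/- and 1297, 1171 and 1146 CPM in WT => St2-/-, against 1444, 1728 and 1345 CPM in St2-/- => WT and 1504, 1425 and 1402 CPM in WT => WT. Every St2-/- host library lay below every WT host library. This held for 2 of 34 members, Aldoa and glucose-6-phosphate isomerase Gpi1, and for 1.71% of all genes tested. No member was above in this way, against 0.963% of genes. For Aldoa the log2 fold change was -0.35 ± 0.10 (SE) with an edgeR adjusted p of 0.106. Gpi1 ranged from 264 to 324 CPM in St2-/- hosts, median 299.9 CPM, and from 330 to 399 CPM in WT hosts, median 366 CPM, with a log2 fold change of -0.30 ± 0.09 (SE).

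Pgam1 (chr19:41911923-41918660, plus strand) encodes phosphoglycerate mutase. It had 26.8, 34.9 and 24.9 CPM in St2-/- => St2-/- and 27.2, 21.4 and 21.4 CPM in WT => St2-/-, against 36.1, 35.1 and 27.0 CPM in St2-/- => WT and 35.2, 40.5 and 39.1 CPM in WT => WT. With WT marrow the hosts did not overlap, and with St2-/- marrow they did. Its log2 fold change was -0.45 ± 0.12 (SE) with an edgeR adjusted p of 0.104, on counts that leave out reads shared with its pseudogenes.

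Of the abundant enzymes at the end of the pathway, Ldha (chr7:46841475-46855627, plus strand) ranged from 697 to 1224 CPM in St2-/- hosts, median 774 CPM, and from 955 to 1389 CPM in WT hosts, median 1166 CPM. WT => St2-/- replicate 1 and St2-/- => St2-/- replicate 2 reached into the WT host range. The log2 fold change was -0.41 ± 0.17 (SE) with an edgeR adjusted p of 0.207. Pkm (chr9:59656368-59679375, plus strand) ranged from 910.2 to 1616 CPM in St2-/- hosts, median 1123 CPM, and from 1369.9 to 1934 CPM in WT hosts, median 1421 CPM. Pkm had a log2 value of -0.30 ± 0.16 (SE) with an edgeR adjusted p of 0.311.

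Pgk1 (chrX:106187100-106203699, plus strand), which makes ATP from 1,3-bisphosphoglycerate, ranged from 39.9 to 71.6 CPM in St2-/- hosts, median 48.2 CPM, and from 66.3 to 93.3 CPM in WT hosts, median 73.0 CPM. The host groups overlapped, and the log2 value was -0.49 ± 0.16 (SE) with an edgeR adjusted p of 0.148. Tpi1 (chr6:124810586-124814296, minus strand), which interconverts the triose phosphates, ranged from 405 to 579 CPM in St2-/- hosts, median 422 CPM, and from 529.6 to 679.5 CPM in WT hosts, median 589.7 CPM. WT => St2-/- replicate 1 lay within the WT host range, and the log2 value was -0.39 ± 0.12 (SE) with an edgeR adjusted p of 0.12.

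The phosphofructokinase isoenzymes had log2 fold changes of -0.97 for Pfkp, -0.15 for the liver form Pfkl and 0.04 for the muscle form Pfkm. Pfkp accounted for 26.8% to 37.9% of the summed phosphofructokinase level per kilobase in St2-/- hosts, median 31.9%, and 26.8% to 57.3% in WT hosts, median 50.2%. Pfkl accounted for 56.7% to 67.1% in St2-/- hosts, median 61.6%, and 39.4% to 70.1% in WT hosts, median 45.2%. Within WT hosts, WT => WT replicate 2 stood apart from the others with the highest Pfkl share and the lowest Pfkp share. Aldoc, the brain form of aldolase, stood at a log2 fold change of 0.09 ± 0.19 (SE), and neuronal enolase Eno2 one of 0.09 ± 0.42 (SE). Gapdh had 8.56 to 15.1 CPM in St2-/- hosts, median 9.97 CPM, and 7.81 to 14.0 CPM in WT hosts, median 10.2 CPM, with a log2 fold change of 0.03 ± 0.19 (SE), on the few reads that are unique to it.

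Eno2 had 35.3 CPM in WT => St2-/- replicate 2 and 22.9 CPM in St2-/- => WT replicate 1, and 3.78 to 16.03 CPM in the other 10 libraries. Summed markers of enteric neurons and glia were 82.0 CPM and 72.1 CPM in these same libraries and 2.66 to 31.6 CPM in the others. These markers are nerve genes of the gut wall and no part of glycolysis, and their part in the Eno2 values was not tested.

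**Figure D3:**
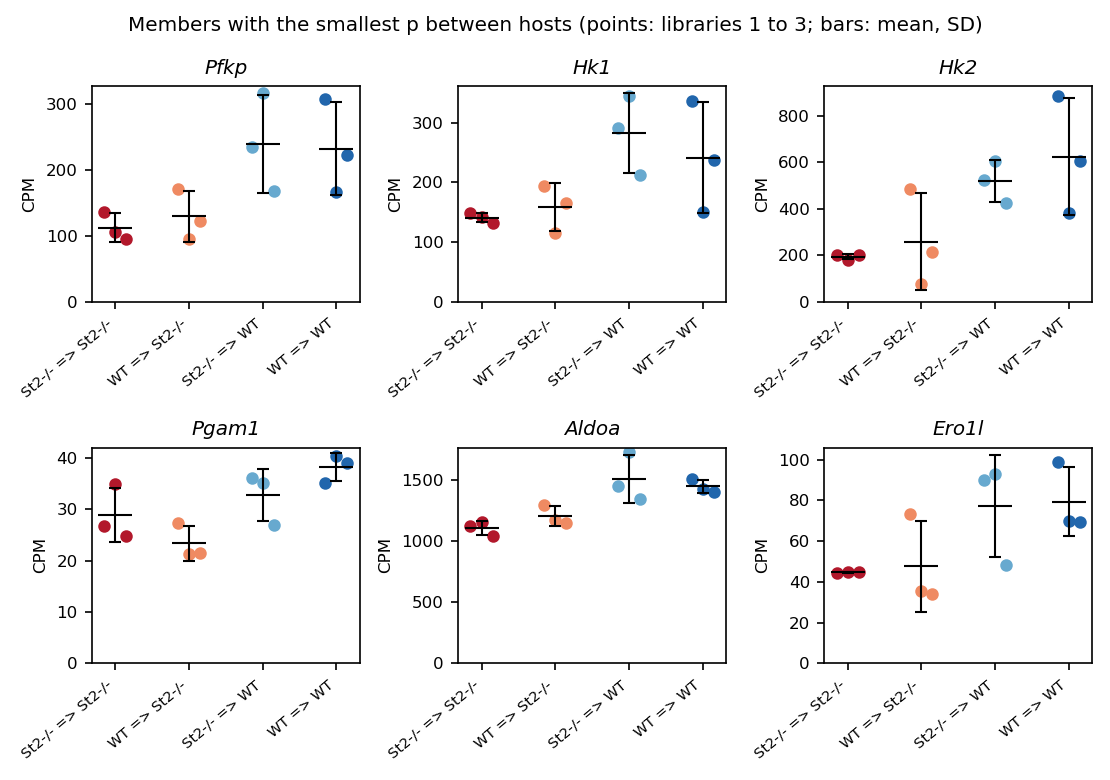
Each panel shows the level in CPM of one of the 6 members with the smallest p in the host comparison, by group from St2-/- => St2-/- to WT => WT, with a point per library and bars for the mean and SD of 3. Aldoa is the member of the 6 whose St2-/- host libraries, 1043 to 1297 CPM, all lie below the WT host libraries, and WT => St2-/- replicate 1 is the highest St2-/- host library for Pfkp, Hk1, Hk2, Aldoa and Ero1l.

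The transporters and regulators of flux were mixed. Slc2a1 (chr4:119108711-119137983, plus strand), the glucose transporter GLUT1, ranged from 98.3 to 221 CPM in St2-/- hosts, median 141 CPM, and from 169 to 298 CPM in WT hosts, median 222 CPM. Its log2 fold change was -0.61 ± 0.21 (SE) with an edgeR adjusted p of 0.151, and the hosts overlapped. Slc2a3 had 2.12 to 8.64 CPM in St2-/- hosts, median 6.11 CPM, and 3.18 to 8.62 CPM in WT hosts, median 5.21 CPM, with a log2 fold change of 0.13 ± 0.34 (SE). The lactate exporter Slc16a3 had one of -0.25 ± 0.27 (SE). Pfkfb3 and Pfkfb4 make fructose-2,6-bisphosphate, the activator of phosphofructokinase, and had log2 fold changes of -0.43 ± 0.19 and -0.63 ± 0.22 (SE), with edgeR adjusted p of 0.24 and 0.157. Pdk1, which keeps pyruvate out of the citric acid cycle, had one of 0.01 ± 0.14 (SE).

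In oxygen sensing, all 4 log2 fold changes were below 0, except that Egln1 moved to 0.00092 with libraries scaled by total counts alone. Hif1a (chr12:73901375-73947530, plus strand), the oxygen-regulated HIF subunit, ranged from 135 to 376 CPM in St2-/- hosts, median 252 CPM, and from 184 to 581 CPM in WT hosts, median 423 CPM. The hosts overlapped, with WT => St2-/- replicate 2 lowest and WT => WT replicate 2 next, and the log2 fold change was -0.65 ± 0.31 (SE) with an edgeR adjusted p of 0.258. Epas1 (chr17:86753700-86833410, plus strand), which encodes HIF-2 alpha and is prominent in endothelium, ranged from 47.6 to 101 CPM in St2-/- hosts, median 70.5 CPM, and from 54.7 to 119 CPM in WT hosts, median 85.8 CPM. For Epas1 the log2 fold change was -0.28 ± 0.20 (SE) with an edgeR adjusted p of 0.437. Egln1 and Egln3 encode prolyl hydroxylases that mark HIF for destruction, and Egln3 is itself a HIF target. They had log2 fold changes of -0.14 ± 0.10 and -0.58 ± 0.24 (SE). Only mRNA was measured, while oxygen regulates HIF-1 alpha mainly through degradation of the protein.

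Of the other hypoxia-inducible genes, Ero1l and Adm were the members with the lowest fold changes. Ero1l (chr14:45283087-45318771, minus strand) encodes an oxidase that forms disulphide bonds in the endoplasmic reticulum. It had 44.4, 45.0 and 44.6 CPM in St2-/- => St2-/- and 73.3, 35.4 and 34.3 CPM in WT => St2-/-, against 90.1, 92.8 and 48.1 CPM in St2-/- => WT and 98.8, 69.9 and 69.5 CPM in WT => WT. Only WT => St2-/- replicate 1 lay within the WT host range, and the log2 fold change was -0.76 ± 0.23 (SE) with an edgeR adjusted p of 0.119. Adm (chr7:110627661-110629820, plus strand), the vasodilator adrenomedullin, had 10.7, 6.57 and 8.5 CPM in St2-/- => St2-/- and 16.2, 13.3 and 4.39 CPM in WT => St2-/-, against 15.5, 19.5 and 11.8 CPM in St2-/- => WT and 24.6, 21.3 and 18.7 CPM in WT => WT. With either marrow alone the St2-/- host libraries lay below those of WT hosts, while over both marrows the hosts overlapped, and the log2 fold change was -0.90 ± 0.28 (SE) with an edgeR adjusted p of 0.137.

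Widely used markers of hypoxia had smaller fold changes. Vegfa (chr17:46016993-46032369, minus strand), the angiogenic growth factor, ranged from 94.2 to 166 CPM in St2-/- hosts, median 120.1 CPM, and from 91.3 to 124 CPM in WT hosts, median 113 CPM. Its log2 fold change was 0.16 ± 0.15 (SE) with an edgeR adjusted p of 0.592. Car9 (chr4:43506966-43513729, plus strand), the carbonic anhydrase that exports acid from hypoxic cells, ranged from 28.2 to 77.4 CPM in St2-/- hosts, median 48.6 CPM, and from 37.4 to 90.4 CPM in WT hosts, median 58.7 CPM. Its log2 fold change was -0.29 ± 0.27 (SE) with an edgeR adjusted p of 0.584, and the hosts overlapped for both genes. Ddit4, an mTOR inhibitor induced by stress, had the highest log2 fold change of the members, 0.34 ± 0.26 (SE). Those of Bnip3, Ndrg1, P4ha1 and Ankrd37 lay between -0.01 and 0.19, and all 4 were within 1 SE of 0.

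The library means of each role show how far these patterns rested on single tumours. Relative to each gene's own mean over the libraries, the tested enzymes averaged -0.24, -0.14 and -0.33 on the log2 scale in St2-/- => St2-/- and 0.08, -0.19 and -0.34 in WT => St2-/-. In WT hosts they averaged 0.24, 0.37 and -0.0019 in St2-/- => WT and 0.23, 0.23 and 0.12 in WT => WT. WT => St2-/- replicate 1 was thus the one St2-/- host tumour with an enzyme mean above 0. It had the highest epithelial markers of the St2-/- hosts, 9630 CPM. In WT hosts, WT => WT replicate 2 had an enzyme mean of 0.23 with the lowest epithelial markers, 7640 CPM. The part of epithelial content in the enzyme means was not tested. The other hypoxia-inducible genes averaged 0.06, -0.13 and -0.14 in St2-/- => St2-/- and 0.19, 0.16 and -0.62 in WT => St2-/-, against -0.03, 0.23 and -0.01 in St2-/- => WT and 0.11, 0.20 and -0.02 in WT => WT. Their lowest tumour was WT => St2-/- replicate 3, which held the lowest value of 4 of the 9 genes, whereas WT => St2-/- replicate 2 held the highest value of 4. Enzyme maxima fell in WT => WT replicate 2 for 6 of 15 genes and in St2-/- => WT replicate 2 for 4.

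**Figure D4:**
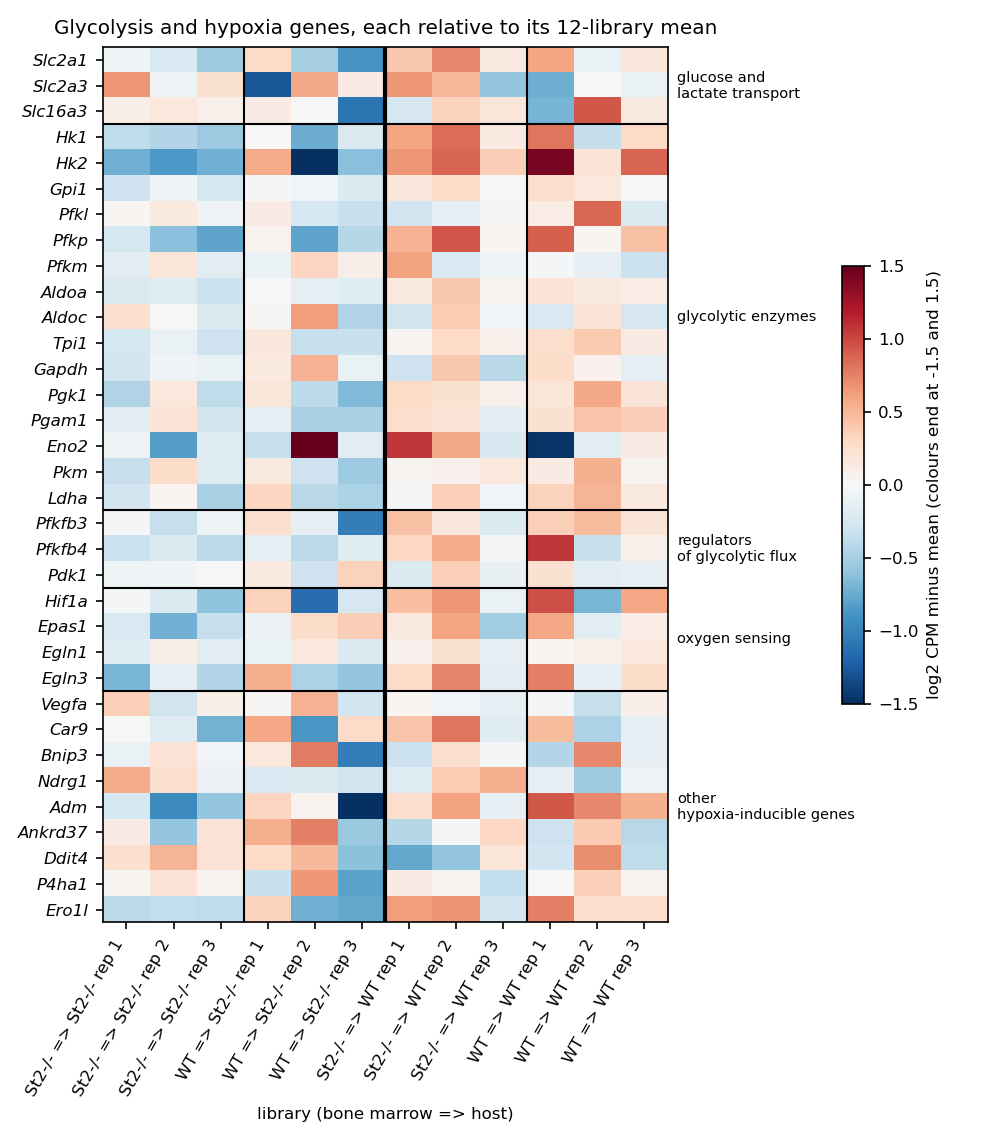
Colours give the log2 level of each of the 34 tested members in each library, relative to the member's mean over the 12 libraries, with members in rows by role and libraries in columns from St2-/- => St2-/- to WT => WT. The enzymes are mostly blue, below their mean, in St2-/- hosts apart from WT => St2-/- replicate 1, and WT => St2-/- replicate 3 holds the lowest value of 4 of the 9 other hypoxia-inducible genes.

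The host effect was also read with each marrow alone. These comparisons share no library, but their SE and p come from the same fit to all libraries. With WT marrow, 0 of 34 members were called by edgeR, against 0.159% of genes, and 7 were lower in St2-/- hosts at an unadjusted p under 0.05, against 8.33% of genes. None was higher, against 8.36%. With St2-/- marrow, 0 were called, against 0.0598% of genes, and 8 were lower at that threshold, against 7.36% of genes, and none was higher, against 4.65%. DESeq2 called Pgam1 with WT marrow, where it called 2.64% of genes lower, and Pfkp and Aldoa with St2-/- marrow, where it called 1.36% lower. Log2 fold changes were below 0 with either marrow for 20 of 34 members and for 29.7% of all genes tested. Pfkp, Hk2, Tpi1 and Ero1l were lower at an unadjusted p under 0.05 with either marrow, 4 of 34 members, against 2.07% of genes. The log2 fold change of Pfkp was -1.09 ± 0.30 with St2-/- marrow and -0.84 ± 0.30 with WT marrow, and that of Hk2 was -1.42 ± 0.52 with St2-/- marrow and -1.27 ± 0.52 with WT marrow (SE). Tpi1 had -0.37 ± 0.17 with St2-/- marrow and -0.42 ± 0.17 with WT marrow, and Ero1l had -0.79 ± 0.32 with St2-/- marrow and -0.74 ± 0.32 with WT marrow (SE).

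St2-/- => St2-/- was set against WT => WT to give the difference when both compartments lack ST2, with libraries that the other comparisons also use. By edgeR 0 of 34 members were called, against 0.0266% of genes, while 13 were lower and 1 higher at an unadjusted p under 0.05, against 7.28% and 6.45% of genes. DESeq2 called 4 members lower, Hk2, Pfkp, Aldoa and Adm, and 1.84% of genes. The log2 fold change was -1.68 ± 0.52 (SE) for Hk2, -1.32 ± 0.41 (SE) for Adm and -1.04 ± 0.30 (SE) for Pfkp. The member that was higher was Ndrg1, at 0.50 ± 0.22 (SE).

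The marrow genotype was compared over both hosts, 6 St2-/- marrow libraries against 6 WT marrow libraries. By edgeR 0 of 34 members were called, as were 0 genes of 15060 (0%), and DESeq2 called 0 members too. At an unadjusted edgeR p under 0.05, 1 member was higher, against 1.27% of genes, and none lower, against 1.48%. That member was Ndrg1 (chr15:66929318-66969640, minus strand), a differentiation and stress gene induced by hypoxia. It had 386, 316 and 248 CPM in St2-/- => St2-/- and 229, 343 and 383 CPM in St2-/- => WT, against 225, 227 and 215 CPM in WT => St2-/- and 241, 181 and 249 CPM in WT => WT. The marrows overlapped through the lowest St2-/- marrow libraries. Its log2 fold change was 0.51 ± 0.15 (SE) with an edgeR adjusted p of 0.999, and its host effect was -0.01 ± 0.15 (SE).

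The next members by p in the marrow comparison were Epas1, Adm and Gapdh, with log2 fold changes of -0.34 ± 0.20, -0.43 ± 0.28 and -0.25 ± 0.19 (SE). Epas1 ranged from 47.6 to 119 CPM with St2-/- marrow, median 64.4 CPM, and from 69.7 to 118 CPM with WT marrow, median 89.8 CPM. Adm ranged from 6.57 to 19.5 CPM with St2-/- marrow, median 11.2 CPM, and from 4.39 to 24.6 CPM with WT marrow, median 17.4 CPM. The median log2 fold change over the tested enzymes was -0.06. Within WT hosts and within St2-/- hosts the edgeR test called 0 members and 0 genes (0%). At an unadjusted edgeR p under 0.05, Ndrg1 was higher with St2-/- marrow in WT hosts, against 2.92% of genes, and no member was lower, against 3.12%. In St2-/- hosts Ndrg1 was again higher, against 1.74% of genes, and Epas1 was lower, against 2.31%.

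Whether the host difference depended on the marrow was tested as an interaction. By edgeR 0 members and 0 genes (0%) were called, and DESeq2 called 0 members. At an unadjusted edgeR p under 0.05, 1 member differed, Eno2, with a log2 difference of -1.99 ± 0.84 (SE) and an edgeR adjusted p of 0.647, against 4.52% of genes in that direction and 3.07% in the other. WT => St2-/- replicate 2 and St2-/- => WT replicate 1, the libraries with high nerve markers, held its highest values. Pgam1, whose hosts overlapped with one marrow and not with the other, had a log2 difference of 0.53 ± 0.25 (SE) between its host effects, with an edgeR adjusted p of 0.661.

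Neighbouring pathways were read from lists that name none of the members and were also chosen with earlier results of these data known. Of 17 other tested glycolysis genes, 3 were lower and 2 higher in St2-/- hosts at an unadjusted edgeR p under 0.05, against 10.8% and 9.81% of all genes tested, with a median log2 fold change of -0.14. These shares of all genes also apply to the counts of lower and higher genes on the lists that follow. Their smallest p belonged to Pdk3, a kinase of pyruvate dehydrogenase, at -0.53 ± 0.12 (SE), and to hexokinase 3, Hk3, at -1.32 ± 0.37 (SE). Of 34 other hypoxia response genes, 7 were lower and 2 higher, with a median of -0.07. One of them was called, Nos2, the inducible nitric oxide synthase, with 4.61 to 96.2 CPM in St2-/- hosts and 213 to 572 CPM in WT hosts, a log2 fold change of -2.83 ± 0.58 (SE) and an edgeR adjusted p of 0.0416. Nos2 is also an inflammatory gene and is not particular to hypoxia. The glycogen synthase Gys1 had the next smallest p on that list, with a log2 fold change of -0.35 ± 0.08 (SE).

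The same comparison in mitochondria gave the most even values. Of 26 citric acid cycle and respiratory chain genes, 26 had log2 fold changes below 0, or 24 with libraries scaled by total counts alone, and 23 were lower in St2-/- hosts at an unadjusted edgeR p under 0.05, against 10.8% of all genes. Their median was -0.34, close to that of the glycolytic enzymes, and 0 of them were called. Cox5a, a subunit of cytochrome c oxidase, had 232 to 356 CPM in St2-/- hosts and 336 to 439 CPM in WT hosts, and malate dehydrogenase Mdh2 had 332 to 382 CPM in St2-/- hosts and 400.2 to 537 CPM in WT hosts. The 7 pentose phosphate genes were all below 0, or 6 with total counts alone, with a median of -0.27, and 2 were lower at an unadjusted edgeR p under 0.05, G6pdx and Rpe, against the same 10.8%. The 5 tested gluconeogenesis genes had a median of 0.03 and none passed that threshold. Epithelial markers moved the same way, with 4 of 8 lower at an unadjusted edgeR p under 0.05 and a median log2 fold change of -0.44. Macrophage and neutrophil markers had medians of -0.62 and -1.07, and endothelial markers one of 0.50. The part of these cell types in the enzyme values was not tested.

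**Figure D5:**
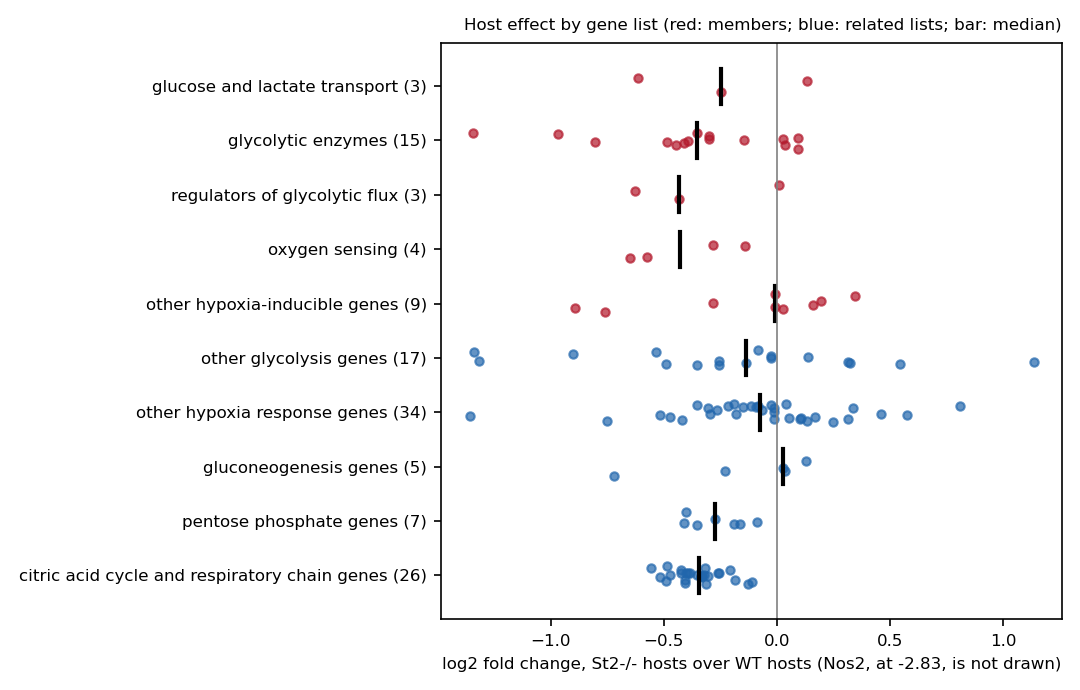
Points are host log2 fold changes, St2-/- hosts over WT hosts averaged over both marrows, of the tested genes of each list, with a bar at each list's median. The enzymes and the citric acid cycle and respiratory chain genes have medians of -0.35 and -0.34, the other hypoxia-inducible genes have one of -0.0088, and Nos2, at -2.83, lies outside the axis and is not drawn.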

How the data were processed

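The data were RNA-seq read counts per gene in 12 colon tumours. Per the labels' protocols, TruSeq libraries of total RNA were sequenced as single-end reads. TopHat and Bowtie2 did the alignment, on the GRCm38 (mm10) build, per the submitters' processing notes, which give no versions. The deposited values were raw read counts, which the authors left unnormalised; the counting tool, annotation and strand setting are not given in the sources used here. Without the strand setting, reads of overlapping genes such as Pfkp and Pitrm1 cannot be told apart with certainty.

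Left out were 5 summary lines without a gene, 49.8% to 59.6% of a library's total. The fit used edgeR 4.0.16 under R 4.3.3. The filterByExpr filter at a minimum count of 10 passed 15060 of 24062 genes, TMM factors lay between 0.899 and 1.12, and a robust quasi-likelihood fit had 1 mean for each of 4 groups. The 8 comparisons were contrasts of this fit, two-sided, with Benjamini-Hochberg adjustment over all genes tested and calls at 0.05. SE is the size of the log2 fold change divided by the root of the F statistic. The edgeR fit was also run on simulated counts with a host effect only, built from the spread of these data. This check did not cover DESeq2, cell content or the sample series. DESeq2 1.42.0 was the alternative test.

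Levels per kilobase divide CPM by the longest coding transcript in GENCODE M21, which also gave gene coordinates (GRCm38) and, by exact match on either strand, the shared 50-base windows. Isoenzyme shares use these levels. Promoters came from RefSeq (GRCm38.p6) and were searched in Python 3.11.15.

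Members and gene lists were chosen with earlier results of these data known. Levels, as values by library or as ranges with medians over the libraries of each side, were given for the 6 members with the smallest p between hosts, the 4 with the smallest between marrows, the 3 highest and 2 lowest per kilobase, and Hif1a, Epas1, Vegfa, Car9 and Slc2a1; from other lists, any called gene or those with the smallest p. Replicates were tumours labelled as separate biological replicates. Equal replicate numbers were not treated as pairs. Of 18 same-numbered pairs, 5 had correlated deviations over 0.1 (range -0.44 to 0.308), while a pair with different numbers reached 0.48. These correlations cannot decide on pairing, because deviations were centred within groups of 3. No 2 libraries of a group agreed within sampling noise (lowest chi-square per gene 16.8). Alternatives changed the scaling, filter, test, block, time covariate and libraries.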

Additional observations from a re-analysis of the deposited data

How the results depend on the processing

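No member was called in any comparison under DESeq2 size factors, either other filter on low counts, the time covariate, or without WT => St2-/- replicates 2 and 3. With the replicate number as a replicate block, 0 members were called in each comparison and 152 genes in the host effect over both marrows (206 without it). DESeq2's Wald test called 9 members in the host effect over both marrows, 1 with WT marrow, 2 with St2-/- marrow and 4 in St2-/- => St2-/- against WT => WT, where it called 1175, 732, 256 and 430 genes against edgeR's 206, 24, 9 and 4. It called 16 genes for the marrow effect in St2-/- hosts and 87 for the interaction, against 0 by edgeR. Scaling by total counts alone, chosen after seeing the data, called 1 member, Pfkp, and 321 genes. Leaving out single libraries gave 0 to 5 members and 80 to 484 genes in the host effect over both marrows; leaving out WT => St2-/- replicates 2 and 3 left 8 genes. With WT marrow, single omissions gave 1 to 142 genes, the block 13, the time covariate 5 and the pair left out 3. With St2-/- marrow they gave 1 to 17 genes, the block 1 and the time covariate 4; between St2-/- => St2-/- and WT => WT they gave 1 to 11, the block 1 and the pair left out 7. The cause of these differences was not tested.

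Of 680 host log2 fold changes of single members under alternatives, 614 kept direction and side of the threshold, 17 became called and 49 changed sign, all in the members named next. Without single libraries, Slc2a3 ranged from -0.078 to 0.34, Pfkl from -0.25 to 0.036, Pfkm from -0.033 to 0.185, Aldoc from -0.075 to 0.20, Gapdh from -0.065 to 0.19, Eno2 from -0.40 to 0.28, Pdk1 from -0.067 to 0.12, Bnip3 from -0.21 to 0.23, Ndrg1 from -0.10 to 0.068 and P4ha1 from -0.27 to 0.12. Without WT => St2-/- replicates 2 and 3 together, Slc2a3 was -0.54, Pfkm -0.071, Gapdh -0.0028, Eno2 -0.44 and Ndrg1 0.00078. By total counts alone, Egln1 was 0.00092, Ndrg1 0.13 and P4ha1 0.14, and P4ha1 was 0.034 with the time covariate. Eno1, with 1 read in all, could not be tested.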
